A study of Mus musculus with 4 samples.

Results

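Imprinted growth genes are genes that are read mainly from the maternal or the paternal copy and that act on growth. 10 were listed by name (Dlk1, Meg3, Rian, H19, Mest, Peg3, Plagl1, Grb10, Cdkn1c and Ndn), and 9 of them were described here among the 31053 genes of the count matrix, while Rian was not analysed here. The matrix came from 1 10x Genomics single-cell RNA library, made at postnatal day 6 (P6) from the proximal and distal parts of 2 tibiae that were pooled from 1 male mouse, without the secondary ossification center. The mouse carried Col10a1Cre, Rosa26-Tdtomato, Irx3 +/Δ and Irx5 +/-. The Cre is driven by Col10a1, the collagen gene of hypertrophic chondrocytes (HCs), so that HCs and their descendants carry the tdTomato reporter. The labels call this Irx3 and Irx5 heterozygous genotype a control. The paper writes the Irx3 allele as +/ΔHC, a notation it uses for loss in the HC lineage through this Cre. HCs and their descendants may therefore differ from other cells in Irx3 copies. The 4 sequencing entries were counted together as 1 library, so no difference was tested and cells were not treated as replicates. Every 95% interval covers counting error only, and it is exact Poisson for CPM and a normal approximation for log2 ratios.

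Genomic imprinting silences 1 parental copy through DNA methylation set in the germ line, and imprinted genes lie in clusters that share such control regions. Dlk1 encodes a membrane protein of the Delta family that restrains differentiation of several mesenchymal cell types, and it is read from the paternal copy. Meg3 and Rian are long noncoding RNAs read from the maternal copy of the same cluster on chromosome 12. H19 is a maternal long noncoding RNA beside the paternal growth factor gene Igf2, and Cdkn1c encodes the cyclin-dependent kinase inhibitor p57, a maternal gene needed for normal cartilage growth. Mest, Peg3, Plagl1 and Ndn are paternal genes, and they encode a hydrolase-like protein, a zinc finger protein, a zinc finger transcription factor and a MAGE family protein in that order. Grb10 encodes an adaptor that dampens signaling by the insulin and IGF receptors. The library counts both copies of a gene together, so no value below says which parental copy was read.

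On GRCm38 the genes lay at chr12:109452823-109463336 (Dlk1, plus strand), chr12:109541001-109571726 (Meg3, plus), chr7:142575529-142578143 (H19, minus), chr7:143458339-143461050 (Cdkn1c, minus), chr6:30723547-30748465 (Mest, plus), chr7:6703892-6730431 (Peg3, minus), chr10:13060504-13131694 (Plagl1, plus), chr11:11930508-12038683 (Grb10, minus) and chr7:62346569-62350262 (Ndn, plus). Dlk1 and Meg3 were therefore neighbors on 1 strand, and H19 and Cdkn1c lay on the same arm of chromosome 7. The end of Mest overlaps Copg2 on the opposite strand, and Copg2 stood between 10.7 and 26.4 CPM (UMIs scaled to a total of 1000000 per class) in every class of cells named below. Opposite-strand noncoding genes with rows of their own also overlap Mest, Meg3, Ndn and Cdkn1c.

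RefSeq (GRCm38.p6) held promoter entries for 8 of the 10 listed genes, with none used for H19 and Cdkn1c. The hexamer TGCCGC, the core of the motif that the imprint-protecting factor ZFP57 binds when it is methylated, was searched on both strands in the 250 bases before each start. It was present in 8.68% of 32851 such stretches and in 4 of the 12 stretches of the listed genes. These 4 belong to 3 genes, Mest, Plagl1 and Meg3, and include overlapping Mest stretches that begin at 30737800 and 30737803. Mest and Meg3 each also had a stretch without it. The main Mest start, the Plagl1 start and the first Meg3 start are shown because they held the hexamer, and the Dlk1 start because Dlk1 is the neighbor of Meg3 and differed with it among chondrocytes. Capitals mark the hexamer in either orientation, and a match is a description of the letters only.
Mest, chr6:30737800-30738049, plus strand: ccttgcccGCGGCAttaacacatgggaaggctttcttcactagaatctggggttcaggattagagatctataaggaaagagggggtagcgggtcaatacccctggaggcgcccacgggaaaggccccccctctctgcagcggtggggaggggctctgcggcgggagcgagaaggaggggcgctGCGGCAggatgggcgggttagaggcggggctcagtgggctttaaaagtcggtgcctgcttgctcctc
Plagl1, chr10:13090582-13090831, plus strand: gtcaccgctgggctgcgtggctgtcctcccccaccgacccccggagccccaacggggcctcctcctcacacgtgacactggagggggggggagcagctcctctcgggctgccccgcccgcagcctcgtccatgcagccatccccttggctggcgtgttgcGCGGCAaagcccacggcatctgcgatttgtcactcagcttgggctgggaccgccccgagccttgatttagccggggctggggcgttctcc
Meg3, chr12:109540746-109540995, plus strand: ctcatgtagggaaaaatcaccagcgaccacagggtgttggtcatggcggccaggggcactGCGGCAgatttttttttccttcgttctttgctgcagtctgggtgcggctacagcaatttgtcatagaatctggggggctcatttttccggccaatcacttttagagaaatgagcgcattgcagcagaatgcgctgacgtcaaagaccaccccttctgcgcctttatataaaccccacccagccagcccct
Dlk1, chr12:109452573-109452822, plus strand: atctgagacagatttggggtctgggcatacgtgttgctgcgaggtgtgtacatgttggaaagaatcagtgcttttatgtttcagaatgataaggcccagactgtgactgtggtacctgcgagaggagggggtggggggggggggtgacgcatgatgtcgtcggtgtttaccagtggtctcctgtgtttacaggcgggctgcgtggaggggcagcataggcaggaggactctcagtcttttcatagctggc
The Mest stretch held 2 matches and 14 CpG dinucleotides, the Plagl1 stretch 1 match and 19 CpGs, and the Meg3 stretch 1 match and 10 CpGs. The Dlk1 stretch held 8 CpGs and no match, against a median of 6 CpGs over all promoters. The first Grb10 start had 40 CpGs, more than 98.7% of promoters.

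3 of the genes also host microRNAs, and Meg3 hosts mmu-miR-1906 beside miR-770. For each gene 1 mature strand is shown with its seed (bases 2 to 8) in capitals, and miR-1906 is not shown. Mature microRNAs are too short for this assay, so the levels below are those of the host transcripts.
mmu-miR-770-5p, hosted by Meg3, chr12:109563710-109563731, plus strand: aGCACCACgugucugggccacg
mmu-miR-675-5p, hosted by H19, chr7:142577112-142577133, minus strand: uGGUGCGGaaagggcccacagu
mmu-miR-335-5p, hosted by Mest, chr6:30741314-30741336, plus strand: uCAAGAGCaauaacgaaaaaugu
The 3 seeds shown were different from each other.

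Of 14181 barcodes, 8256 cells passed the filters, with a median of 13957.5 unique molecular identifiers (UMIs, each a counted RNA molecule). They formed 30 clusters, built without 57 imprinted genes among the genes used for clustering, and each cluster was named "-like" from fixed marker genes, none of them one of the 9, or left without a name. The chondrogenic cells were 411 Ucma-rich, 743 maturing and 153 cycling chondrocyte-like cells, 229 cells of a cluster led by Tnni2 that carried no stage name, 316 pre-hypertrophic (pre-HC-like) and 106 HC-like cells. The others were 529 immature and 436 mature osteoblast-like cells, 209 Cxcl12-abundant marrow stromal-like cells, 307 periosteal or tendon fibroblast-like cells, 99 pericyte or smooth muscle-like cells, 818 blood vessel-like cells, 627 red blood cell lineage-like cells, 3081 leukocytes and 13 Schwann-like cells. The HC-like cells formed a single cluster with Col10a1 at 11249 CPM, whose 10 leading genes held 1 HC marker (Col10a1) and 2 genes of the monocyte list (F13a1 and Fn1). 2 clusters of 179 cells, in which cartilage and blood genes were mixed and 125 cells were marked as doublets, stayed without a name and out of the comparisons. Median depth ran from 7708 UMIs in Schwann-like to 33060 in HC-like cells, so shares of cells with a UMI are given after each cell was thinned to 5000 UMIs, which left out 230 leukocytes, 89 vessel-like cells, 13 immature osteoblast-like cells and at most 9 of any other skeletal or stromal class.

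All 9 genes were detected, and the skeletal cells held most of their molecules. Dlk1 had 8560 UMIs in the filtered cells, of which 71.9% were in chondrogenic and 2.49% in blood cells. Meg3 had 52597 UMIs with 64.4% in chondrogenic cells, and H19 had 146800 UMIs with 82.1% there. The heatmap of CPM by class shows the blood columns dark for all 9 genes, and H19, Peg3, Plagl1 and Grb10 at similar shades through the cartilage columns before hypertrophy.

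**Figure D1:**
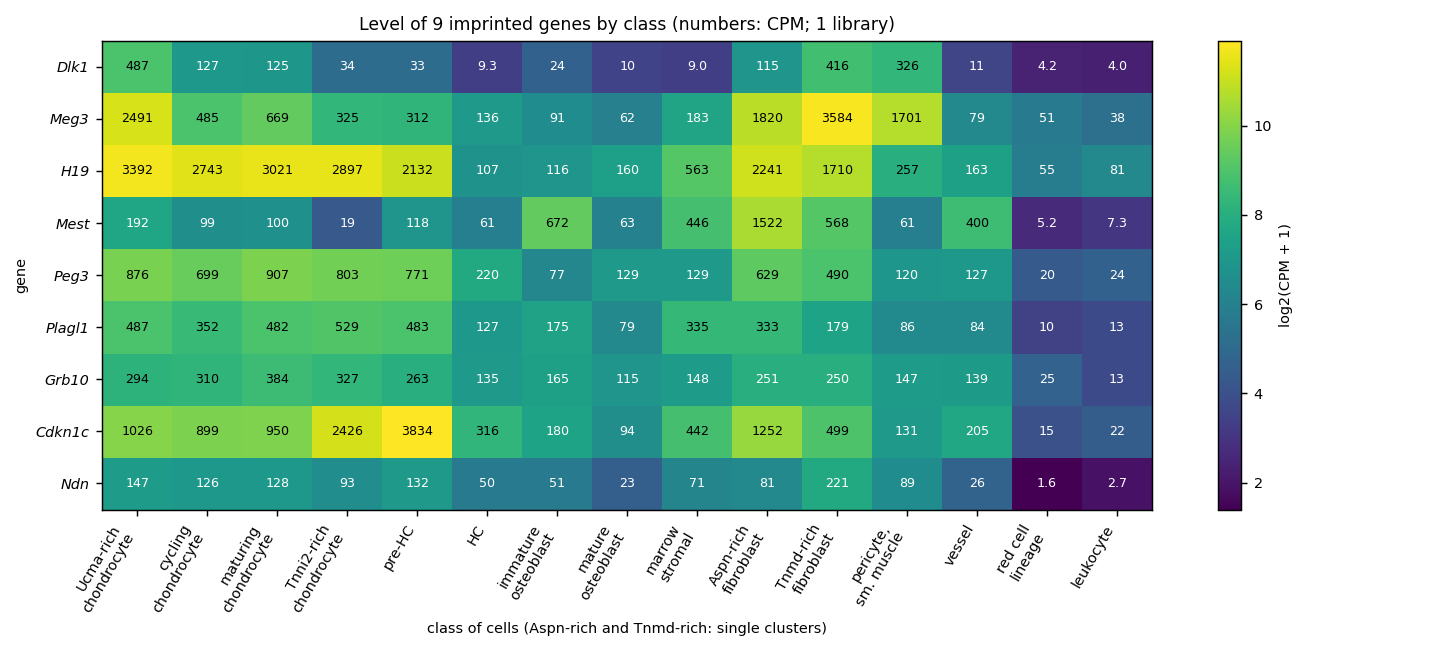
Level of the 9 imprinted genes (rows) in 15 classes or clusters of cells (columns), colored by log2(CPM + 1) with the CPM printed in each cell of the grid. H19 stands at 3392 CPM in Ucma-rich chondrocyte-like cells and 107 CPM in HC-like cells, Cdkn1c peaks at 3834 CPM in pre-HC-like cells, and Mest at 1522 CPM in the Aspn-rich fibroblast cluster.

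The first comparison asked how cartilage and bone-forming cells differ. 8 of the 9 genes were at least 2-fold higher in the 1958 chondrogenic than in the 965 osteogenic cells, and Mest was lower. 9.46% of the 8248 genes with enough counts were 2-fold higher, 16.3% were 2-fold lower and 25.8% were either, and the median log2 ratio was 2.87 for the 9 genes against -0.179 for all genes. The 9 genes were chosen with earlier results of these data known. Here and below, counts and medians set against all genes are therefore a description and no independent support. H19 stood at 2611 CPM in chondrogenic and 142 CPM in osteogenic cells, a log2 ratio of 4.19 (95% counting interval 4.14 to 4.25). Cdkn1c stood at 1720 against 131 CPM (log2 ratio 3.71), Meg3 at 734 against 74.1 CPM (3.29), Dlk1 at 133 against 16.2 CPM (2.96) and Peg3 at 787 against 107 CPM (2.87). Plagl1 (1.90), Ndn (1.76) and Grb10 (1.19) had smaller ratios. Mest went the other way, with 103 CPM in chondrogenic and 322 CPM in osteogenic cells (log2 ratio -1.64, -1.70 to -1.58).

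Among other imprinted genes from a list of 50, 48 had rows and 27 had enough counts in this comparison, and 7 of those were 2-fold higher in chondrogenic cells and 1 lower. Igf2, the growth factor gene beside H19, was at 132 CPM in chondrogenic and 11.2 CPM in osteogenic cells (log2 ratio 3.46). Phlda2, a growth-restraining gene of the Cdkn1c cluster, had a log2 ratio of 3.74, and Mirg, a noncoding RNA of the Dlk1 and Meg3 cluster, one of 2.73. Dcn, which encodes the bone and tendon proteoglycan decorin and is imprinted in mouse placenta, was the 1 lower (-2.74). The median log2 ratio of the 27 genes was 0.29.

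Within cartilage, Dlk1 and Meg3 were highest in Ucma-rich cells and differed between the stages before hypertrophy as well as after it. The Ucma-rich class was named from a list of resting or Ucma-rich chondrocyte genes, of which only Ucma was among its 10 leading genes. Ucma was also among the leading genes of the cycling cluster, so the class is not shown to be the resting zone. Dlk1 stood at 487 CPM (470 to 505) in Ucma-rich cells and at 127 and 125 CPM in cycling and maturing cells, whose intervals overlapped. It stood at 33.5 CPM in the Tnni2-rich cluster and 33.2 CPM in pre-HC-like cells, again overlapping, and at 9.28 CPM in HC-like cells. Meg3 followed the same order of classes except that maturing cells (669 CPM) were above cycling cells (485 CPM), with 2491 CPM in Ucma-rich, 325 CPM in Tnni2-rich, 312 CPM in pre-HC-like and 136 CPM in HC-like cells. After thinning, 71.6% of Ucma-rich cells held a Dlk1 UMI, against 32.5% of maturing, 11.7% of pre-HC-like and 2.83% of HC-like cells, while the unthinned shares were 84.9% in Ucma-rich, 44.0% in pre-HC-like and 10.4% in HC-like cells. Leukocytes, which stand in for cells without the gene, had 1.51% thinned and 3.41% unthinned. Dlk1 and Meg3 were both among the 10 leading genes of the Ucma-rich cluster although neither was used to build it.

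Dlk1 and Meg3 were also counted in the same cells. In thinned Ucma-rich cells, 288 of 409 held both RNAs, where the product of the 2 shares gives 283 cells. The per-cell counts had a Pearson r of 0.54, given as a description over cells of 1 library. The r was 0.43 in maturing, 0.42 in pericyte-like and 0.39 in fibroblast-like cells. Every one of the 107 fibroblast-like cells with a Dlk1 UMI also held Meg3, while 88.4% of all fibroblast-like cells did. There the product of the 2 shares gives 94.6 cells with both. In immature osteoblast-like cells 18 of 516 held both, where the product of the 2 shares gives 5.95 cells. In the Tnni2-rich and pre-HC-like clusters, where Dlk1 was low, the r was 0.02 and 0.09. The r was as high in classes with still less Dlk1 (4.21 to 10.9 CPM), at 0.79 in monocyte or dendritic-like, 0.48 in vessel-like and 0.41 in red cell lineage-like cells. These values rest on 3, 14 and 6 cells with a Dlk1 UMI, so the r does not tell expression from background.

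H19, Peg3, Plagl1, Grb10 and Ndn were flatter across the cartilage stages before hypertrophy. H19 ran from 3392 CPM in Ucma-rich to 2132 CPM in pre-HC-like cells, and at least 95.2% of thinned cells in each of those 5 clusters held a UMI. Peg3 ran from 699 CPM in cycling to 907 CPM in maturing cells, Plagl1 from 352 to 529 CPM, Grb10 from 263 to 384 CPM and Ndn from 93.1 to 147 CPM. Mest varied more, from 19.3 CPM in the Tnni2-rich cluster to 192 CPM in Ucma-rich cells.

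**Figure D2:**
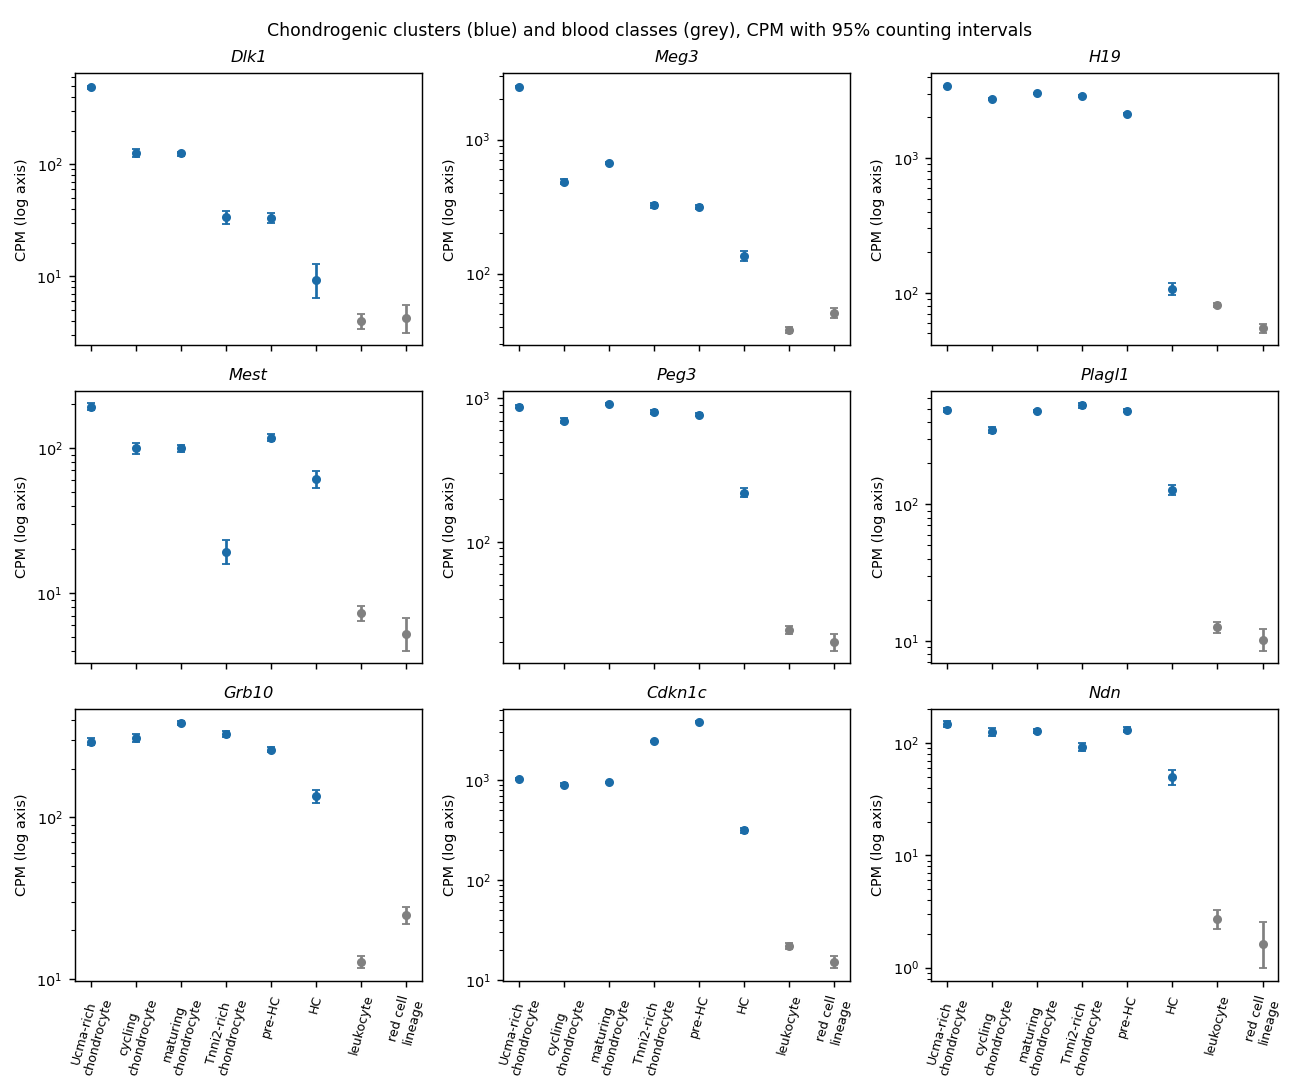
CPM (log axis) of each gene in the 6 chondrogenic clusters (blue) and in leukocytes and the red cell lineage (grey), with exact 95% Poisson intervals. Dlk1 goes from 487 to 9.28 CPM along the clusters as ordered, Cdkn1c has its highest point in pre-HC-like cells (3834 CPM), and H19 is near the blood level in HC-like cells (107 against 81.2 CPM in leukocytes).

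Cdkn1c was highest before hypertrophy, and it was among the 10 leading genes of the pre-HC-like cluster although it was not used to build it. It stood at 1026 CPM in Ucma-rich, 950 CPM in maturing and 899 CPM in cycling cells, at 2426 CPM in the Tnni2-rich cluster, which held 913 CPM of Col10a1, and at 3834 CPM (3795 to 3872) in pre-HC-like cells. Between pre-HC-like and maturing cells 3 of the 9 genes passed 2-fold, against 6.60% of the 7047 genes with enough counts. Cdkn1c was higher in pre-HC-like cells (log2 ratio 2.01, 1.98 to 2.04, where 3.26% of genes were higher), and Dlk1 (-1.88) and Meg3 (-1.10) were lower (3.33% of genes). Plagl1 (0.00) and Ndn (0.05) hardly differed, and Mest (0.25), Peg3 (-0.23), H19 (-0.50) and Grb10 (-0.55) stayed under 2-fold. The Dlk1 and Meg3 ratios turned to 0.62 and 0.09 when cells with over 5% mitochondrial UMIs were left out, which left 125 pre-HC-like and 367 maturing cells, and Meg3 stood at -0.25 at resolution 1.5 and -0.84 with more variable genes. At 20% mitochondrial UMIs and at resolution 0.6 no pre-HC-like class was found and Cdkn1c was highest in the HC-like class (3237 and 3101 CPM). The Cdkn1c ratio stayed between 1.39 and 2.18 in the alternatives that gave both classes.

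Of the other cell cycle inhibitors, Cdkn1a, which encodes p21, was the 1 of 4 with enough counts that was 2-fold higher in pre-HC-like than in maturing cells (397 against 141 CPM, log2 ratio 1.49). Cdkn1a stood at its highest in HC-like cells (719 CPM), where Cdkn1c was at 316 CPM. Cdkn1b, which encodes p27, stayed between 9.84 and 21.6 CPM in all chondrogenic clusters.

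Cycling chondrocyte-like cells were close to their neighbors. Of the 9 genes, Meg3 alone passed 2-fold against the 1383 other chondrocytes outside the pre-HC-like and HC-like classes (485 against 999 CPM, log2 ratio -1.04), where 10.3% of the 7555 genes passed, 8.66% higher and 1.61% lower. Cdkn1c was at 899 against 1283 CPM (log2 ratio -0.51) and H19 at 2743 against 3076 CPM (-0.17). The 1383 cells mix Ucma-rich, maturing and Tnni2-rich cells, which held 2491, 669 and 325 CPM of Meg3 in that order. Their Cdkn1c levels were 1026, 950 and 2426 CPM. Cycling cells thus stood below maturing but above Tnni2-rich cells in Meg3, and near maturing cells in Cdkn1c. The cluster was named cycling because more than 50% of its cells held a UMI of Top2a, which is 1 of 13 cycling genes of a fixed list. All 13 were 2-fold higher in this cluster, with a median log2 ratio of 3.54, which restates the naming and is no separate finding. 15.7% of its cells were marked as doublets, and the Meg3 ratio was -1.28 without the marked cells. It was -0.64 when cells with over 5% mitochondrial UMIs were left out.

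From pre-HC-like to HC-like cells 7 of the 9 genes were at least 2-fold lower and none was higher. 5.96% of the 8040 genes were 2-fold lower and 23.5% were 2-fold higher (29.5% either), and the median log2 ratio was -1.73 for the 9 genes against 0.463 for all genes. H19 went from 2132 to 107 CPM (log2 ratio -4.30, -4.44 to -4.15), at percentile 0.0871 of the compared genes, counted from the lowest ratio. Cdkn1c went from 3834 to 316 CPM (-3.60, -3.68 to -3.51), Plagl1 from 483 to 127 CPM (-1.92), Peg3 from 771 to 220 CPM (-1.80), Dlk1 from 33.2 to 9.28 CPM (-1.73), Ndn from 132 to 49.8 CPM (-1.39) and Meg3 from 312 to 136 CPM (-1.20). Grb10 (-0.96) and Mest (-0.95) stayed just under 2-fold. After thinning, 97.2% of pre-HC-like and 17.9% of HC-like cells held an H19 UMI, and 99.1% and 46.2% held a Cdkn1c UMI. Unthinned, the H19 shares were 99.4% and 64.2%.

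The depth of the 2 clusters was alike, with medians of 31182.5 and 33060 UMIs, as was the median mitochondrial share (4.37% and 4.50%). Meg3 was between -1.49 and -0.89 over the alternatives, and the other 6 kept 2-fold in each that gave both classes. 9 of 11 cycling genes with enough counts were 2-fold higher in HC-like cells (median log2 ratio 1.21), and their part in the result was not tested. Of 28 other imprinted genes with enough counts, 5 were 2-fold lower in HC-like cells and 2 were higher, with a median log2 ratio of 0.42. Igf2 (-2.41), Zim1 (-2.28), a neighbor of Peg3, Mirg (-2.03) and the retrotransposon-derived Peg10 (-3.47) were among the lower ones. In the HC-like cluster, 89 cells had more than 14 UMIs of WPRE, the sequence at the end of the tdTomato transcript, and 17 did not. Cdkn1c stood at 236 CPM in the 89 cells and 1023 CPM in the 17 (log2 ratio -2.11, -2.29 to -1.93). Of the other 8 genes, Dlk1 had a log2 ratio of 1.55 with a wide interval (-0.58 to 3.67), from 10.0 and 2.77 CPM. The rest lay between -0.72 and 0.38.

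In the osteoblast lineage Mest was the gene that separated the stages. Immature osteoblast-like cells had 672 CPM (653 to 692) and mature ones 63.1 CPM (58.1 to 68.5), a log2 ratio of -3.39, and 79.3% and 20.4% of thinned cells held a UMI. 4 of the 9 genes were 2-fold lower in mature cells, against 17.9% of the 8433 genes (22.4% in either direction, 4.53% higher). Counted in either direction the number was also 4. That count was 7 with at least 2000 genes per cell and at 5% mitochondrial UMIs, and 2 with 10 CPM added. The shares of all genes under these settings are not given here. The others were Ndn (51.3 to 22.8 CPM, log2 ratio -1.14), Plagl1 (175 to 79.2 CPM, -1.13) and Dlk1 (24.0 to 10.4 CPM, -1.13), at percentiles of 13.7 to 13.9 among all genes, so that Mest at percentile 0.605 stood apart from them. Peg3 (0.74) and H19 (0.46) had the opposite sign in summed CPM. Per cell H19 was lower in mature cells, with a median of 27.7 CPM against 70.8 CPM in immature cells. After thinning, 21.8% of mature and 36.8% of immature cells held an H19 UMI, so no rise of H19 is read from its ratio. Dlk1 turned to 0.43 when up to 20% of mitochondrial UMIs was allowed, to -0.66 at resolution 0.6 and to -0.75 with doublets left out, and the Ndn ratio was -0.90 at its smallest.

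The H19, Meg3 and Dlk1 molecules of mature osteoblast-like cells stood in no higher ratio to Col2a1, the main collagen gene of cartilage, than those of blood cells. Mature osteoblast-like cells held 70.4 H19 UMIs, 27.1 Meg3 UMIs and 4.57 Dlk1 UMIs per 1000 Col2a1 UMIs. Leukocytes held 99.3, 46.5 and 4.85 on the same scale. In immature osteoblast-like cells these ratios were 243, 190 and 50.2, above those of leukocytes for each gene, and Mest stood at 1405 against 8.88.

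Tracing the reporter asked whether osteoblasts that descend from HCs differ from the others. Of the 965 osteogenic cells, 251 with more than 14 WPRE UMIs were taken as HC-derived. HC-derived cells may also differ from the others in Irx3 copies, and the part of this in the ratios was not tested. Mest alone passed 2-fold (2 genes passed with doublets left out, with the mean over cells and with 2 of the other reporter limits), with 111 CPM in HC-derived and 415 CPM in the 714 other cells (log2 ratio -1.89, -2.02 to -1.76). 1.60% of the 7952 genes were 2-fold lower, 0.817% were higher and 2.41% were either. Since mature cells made up 150 of the 251 and 286 of the 714, the ratio was taken within each stage as well. Among immature cells Mest stood at 279 CPM in 101 HC-derived and 788 CPM in 428 other cells (-1.49, -1.64 to -1.35). Among mature cells it stood at 33.8 and 80.0 CPM (-1.22, -1.51 to -0.93).

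Cdkn1c was 2-fold lower in HC-derived immature cells (94.1 against 205 CPM, log2 ratio -1.12) and closer in mature cells (85.9 against 99.2 CPM, -0.21). Ndn was somewhat higher in HC-derived cells of both stages (0.64 and 0.55), and H19 lower (-0.44 and -0.33). Dlk1 had opposite signs, at 39.6 against 19.4 CPM in immature cells (0.99, from 61 and 101 UMIs) and 5.69 against 13.1 CPM in mature cells (-1.08, from 19 and 76 UMIs). Mature cells as a whole held no more Dlk1 per Col2a1 UMI (4.57 per 1000) than leukocytes (4.85 per 1000), and no more H19 (70.4 against 99.3 per 1000). Col2a1 stood at 2092 CPM in HC-derived and 2385 CPM in other mature cells. How much of the mature Dlk1 and H19 counts is background was not tested. The osteocalcin gene Bglap moved beside these values, with log2 ratios of -3.30 in immature and -2.38 in mature cells, and its part in them was not tested. The plot of HC-derived over other cells sets both stages side by side.

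Marrow stromal-like cells, the Cxcl12-rich support cells of the marrow, differed from immature osteoblast-like cells in 3 of the 9 genes at 2-fold, against 8.26% of 8733 genes. H19 was higher at 563 against 116 CPM (log2 ratio 2.27) and Cdkn1c at 442 against 180 CPM (1.29), where 5.21% of genes were higher. Dlk1 was lower at 9.04 against 24.0 CPM (-1.32), where 3.05% were lower. Meg3 was at 183 against 90.9 CPM (just under 2-fold) and Plagl1 at 335 against 175 CPM (0.93). This comparison was the least stable. The ratio of Dlk1 changed sign in 3 alternatives and that of Cdkn1c in 1, with -0.06 for cells with at least 2000 genes. Under that setting none of the 9 passed 2-fold and H19 stood at 0.40, and the share of all genes is not given here.

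Grb10 acts on IGF signaling, so the genes of that axis were counted too. 8 of 13 IGF axis genes with enough counts were 2-fold higher in marrow stromal-like than in immature osteoblast-like cells and none was lower. The median log2 ratio was 1.43, and of all genes compared 5.21% were higher and 3.05% lower. Igf1 stood at 1149 CPM in marrow stromal-like and 246 CPM in immature osteoblast-like cells. Igfbp4, Igfbp5 and Igf1 were among the 10 leading genes of the marrow stromal-like cluster and were not kept out of the clustering, so the count in part restates that cluster. Grb10 itself was level, at 148 and 165 CPM in the same 2 classes (log2 ratio -0.16).

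The fibroblast-like class held the highest levels of Meg3 (2682 CPM) and Mest (1056 CPM) of all classes. With at least 2000 genes per cell and at 20% mitochondrial UMIs Meg3 was highest in Ucma-rich cells (2630 and 3659 CPM), while Mest kept its rank in the filters and clusterings run. The class was made of 2 clusters that differed in most of the genes. The cluster led by Aspn and Postn, markers of periosteum, had 1522 CPM of Mest (1465 to 1580), 1252 CPM of Cdkn1c and 333 CPM of Plagl1. The cluster led by Mfap5 and the tendon marker Tnmd had 568 CPM of Mest, 499 CPM of Cdkn1c and 179 CPM of Plagl1. The other direction held for Dlk1 (115 against 416 CPM), Meg3 (1820 against 3584 CPM) and Ndn (80.7 against 221 CPM). H19 (2241 and 1710 CPM) and Peg3 (629 and 490 CPM) were closer in summed CPM, and Grb10 was at 251 and 250 CPM. Per cell H19 was not close, with a median of 2489 CPM in the Aspn-led and 394 CPM in the Tnmd-led cluster. After thinning, 82.4% and 68.0% of their cells held an H19 UMI. Intervals of the 2 clusters were apart for every gene but Grb10.

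Pericyte or smooth muscle-like cells carried the Dlk1 and Meg3 pair at high levels. Dlk1 stood at 326 CPM (292 to 363), and Meg3 at 1701 CPM, with a UMI in 48.9% and 98.9% of thinned cells. Among the classes only Ucma-rich cells (487 CPM) had more Dlk1, but pericyte-like cells were the highest class with at least 1000 genes per cell (309 CPM) and with imprinted genes allowed among the variable genes (324 CPM), so that Ucma-rich cells were then more than 1.5 times below their 487 CPM. H19 was at 257 CPM and Mest at 60.6 CPM. The H19 count was 81.4 UMIs per 1000 Col2a1 UMIs, within the range of the blood classes, while Meg3 was at 539 and Dlk1 at 103 on that scale. Schwann-like cells, only 13 in number, had 592 CPM of Meg3 (454 to 758) and no Dlk1 UMI, where the limit of 3 counts allows up to 28.6 CPM.

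**Figure D3:**
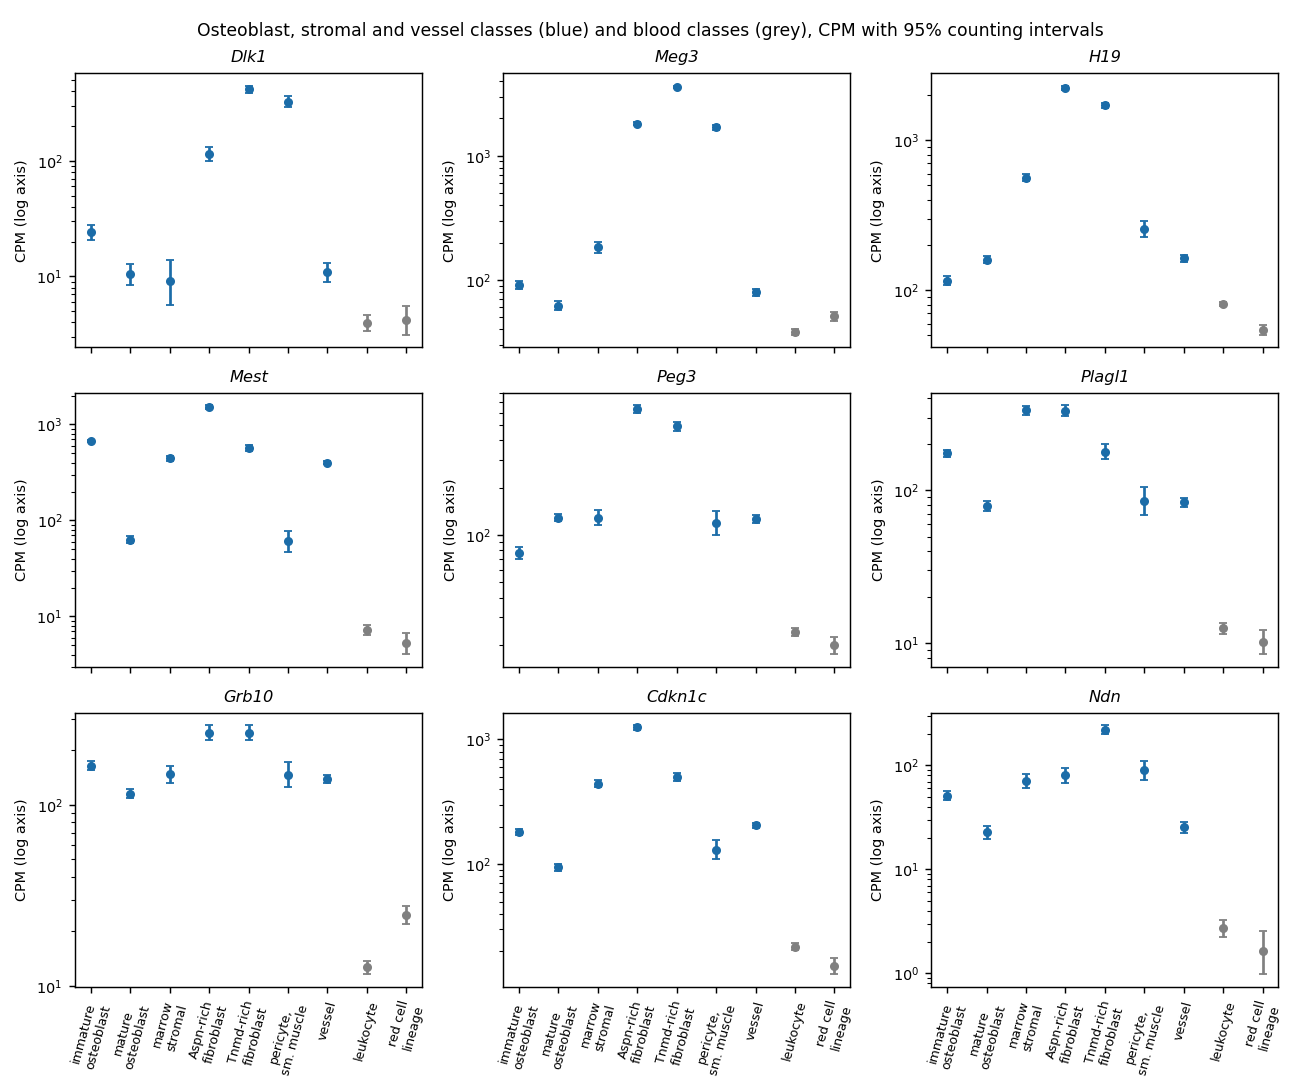
CPM (log axis) of each gene in osteoblast-like, marrow stromal-like, fibroblast-like, pericyte-like and vessel-like cells (blue) and in leukocytes and the red cell lineage (grey), with exact 95% Poisson intervals. Mest goes from 672 CPM in immature to 63.1 CPM in mature osteoblast-like cells and is at 400 CPM in vessel-like cells, and Dlk1 is high in the Tnmd-rich fibroblast cluster (416 CPM) and in pericyte-like cells (326 CPM).

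Vessel-like cells were set against leukocytes. 8 of the 9 genes were 2-fold higher in vessel-like cells, with H19 just under at a log2 ratio of 0.99. 23.6% of the 9143 genes were higher, 15.7% lower and 39.3% either. Mest stood out, at 400 against 7.26 CPM (log2 ratio 5.60, 5.45 to 5.75), and 63.0% of thinned vessel-like cells held a UMI against 2.53% of leukocytes. Grb10 (139 against 12.7 CPM, 3.36), Cdkn1c (205 against 21.8 CPM, 3.17), Ndn (2.84), Plagl1 (2.64) and Peg3 (2.35) followed. Dlk1 (1.26) and Meg3 (1.04) just passed, and Col2a1, which neither class is known to make, stood at 1606 against 818 CPM beside them. Per 1000 Col2a1 UMIs, H19 was at 101 and 99.3 UMIs, Meg3 at 49.4 and 46.5, and Dlk1 at 6.77 and 4.85, so expression was not read from these 3 CPM values. How much of them is background was not tested. The Dlk1 ratio was 0.13 with doublets left out and -2.75 at 5% mitochondrial UMIs, where 39 vessel-like cells were left, and the Meg3 ratio ran from 0.68 to 1.45.

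The 2 vessel-like clusters differed in Mest. The larger, led by Fabp4, Emcn and Plvap, had 428 CPM of Mest (415 to 442) in 745 cells. The smaller, led by Eln, Gja4 and Sema3g, genes of arterial endothelium, had 49.6 CPM (34.7 to 68.6) in 73 cells. Cdkn1c went the other way at 198 and 288 CPM, as did Ndn at 22.9 and 57.8 CPM. Of 23 other imprinted genes with enough counts, 11 were 2-fold higher in vessel-like cells than in leukocytes and none was lower, with a median log2 ratio of 0.97. Asb4, a gene of vascular development, was at 117 CPM (log2 ratio 5.42), and Sgce (4.48) and Cd81 (2.70) were among the others.

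Blood cells held low levels that mostly followed Col2a1. H19 ran from 41.5 CPM in mast or basophil-like cells to 118 CPM in macrophage-like cells, and Col2a1 from 363 to 1498 CPM in the same 2 classes. The macrophage-like cluster had Acp5, Atp6v0d2 and Ctsk of the osteoclast list among its 10 leading genes, beside 4 macrophage genes. Per 1000 Col2a1 UMIs, H19 was between 78.5 and 133 in all leukocyte classes and 79.3 in the red cell lineage, Peg3 between 22.5 and 36.7, and Cdkn1c between 20.7 and 35.7. Fibroblast-like cells held 1727 H19 and 489 Peg3 UMIs on that scale. 28.3% of thinned leukocytes held an H19 UMI, 10.4% a Meg3 UMI and 2.53% a Mest UMI, and how much of these shares is background was not tested. Unthinned, 52.7% of leukocytes held an H19 UMI. All chondrogenic cells together held 58.1 H19 and 16.3 Meg3 UMIs per 1000 Col2a1 UMIs, against 99.3 and 46.5 in leukocytes. Dlk1 in mast or basophil-like cells (27 UMIs, 21.9 per 1000) and Meg3 in the red cell cluster led by Car1 (107 per 1000) were above the leukocyte ratios of 4.85 and 46.5.

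Grb10 left that pattern. It stood at 37.1 CPM (30.9 to 44.2) in mast or basophil-like cells and 42.9 CPM (37.5 to 48.9) in the red cell cluster led by Car1, but at 9.70 CPM in the other red cell cluster and 8.59 to 13.5 CPM in the remaining leukocyte classes. Per 1000 Col2a1 UMIs these 2 sets of cells held 102 and 134 Grb10 UMIs, against 9.04 to 20.3 in the remaining leukocyte classes. In the same 2 sets H19 held 114 and 91.7 UMIs, as elsewhere in blood. After thinning, 19.5% of the Car1-led red cells held a Grb10 UMI, against 4.84% of all leukocytes.

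**Figure D4:**
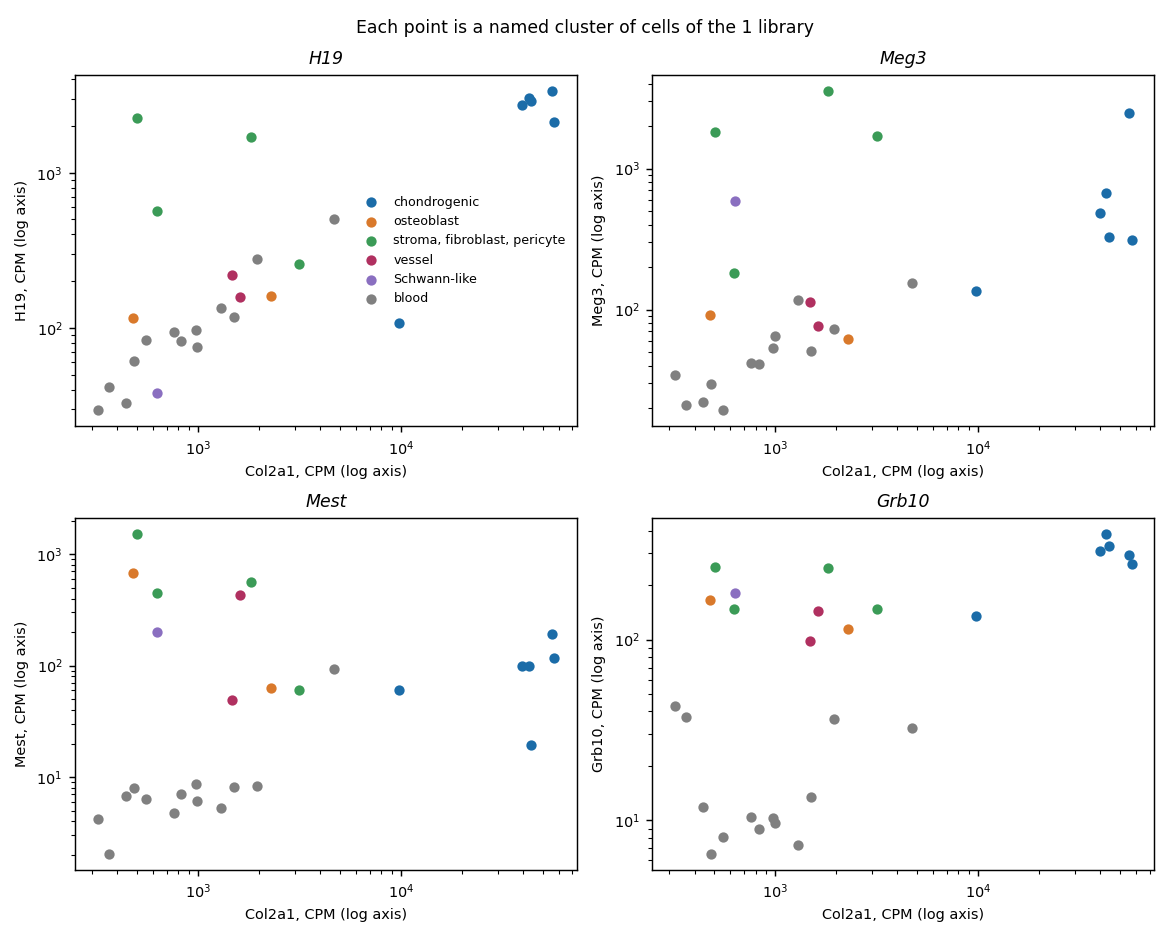
CPM of H19, Meg3, Mest and Grb10 against CPM of Col2a1 (both axes log) for each named cluster of cells, colored by group. Blood clusters (grey) lie along a band for H19, vessel and mature osteoblast-like cells lie on or near it, and 2 blood clusters with Grb10 at 37.1 and 42.9 CPM lie above the others at low Col2a1.

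Over the 30 clusters, the genes most like each member by Pearson r of log2(CPM + 10) were searched among 7567 genes, as a description that the shared library and the split into cartilage, stroma and blood shape. H19 was most like Igf2 (r = 0.98), then Nrk (0.97) and Thbs3 (0.95). Igf2 stood at 220 CPM in Ucma-rich, 155 CPM in maturing, 126 CPM in fibroblast-like, 100 CPM in pre-HC-like and 18.0 CPM in HC-like cells. H19 had the same order of these classes except that pre-HC-like cells (2132 CPM) stood above fibroblast-like cells (1981 CPM). Meg3 was most like P4ha3 (0.92), a collagen prolyl hydroxylase subunit, and Mirg (0.92), which stood at 79.6 CPM in Ucma-rich, 53.9 CPM in pericyte-like and 34.4 CPM in fibroblast-like cells. Dlk1 was most like Cyp26b1 (0.88), which encodes an enzyme that breaks down retinoic acid, and Mest most like Ltbp3 and C1qtnf6 (both 0.91). Plagl1 was most like Ctgf (0.95) and Cyr61 (0.94), both known targets of YAP and TAZ, and Ndn most like Tgfb2 (0.96). Peg3 was most like Capn6 and Fibin (both 0.96), Cdkn1c most like Spats2l (0.95) and Grb10 most like Tmed1 (0.95).

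Among the 9 genes themselves, the highest r was between Peg3 and Cdkn1c (0.96), and Dlk1 and Meg3 had 0.88. Mest was the least alike, with 0.54 to Dlk1 and to H19. Of the other imprinted genes, 26 of 48 reached 20 CPM in a skeletal, stromal or vessel class. Not all were low in blood. Kcnq1ot1, the noncoding RNA that silences Cdkn1c on the paternal copy, stood at 634 CPM in the Tnni2-rich cluster and 536 CPM in pre-HC-like cells, and also at 543 CPM in mast or basophil-like cells. Gnas, imprinted in some tissues only, ran from 390 CPM in macrophage-like to 2667 CPM in fibroblast-like cells.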

How the data were processed

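Cells of 2 tibiae of 1 P6 mouse were read as 1 library. The authors aligned reads to mm10 plus the tdTomato and WPRE sequences, and the submitters' processing notes name Cell Ranger 3.1.0 and Seurat 3. No annotation release was given in the sources used here. The values deposited are raw UMI counts per gene and barcode, for 14181 barcodes and 158281984 UMIs, with the reporter counts in a separate matrix, and no normalization had been applied.

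Barcodes were kept from 1600 genes up, with no more than 10% mitochondrial and 50% ribosomal UMIs. This left 8256 cells of 2623 to 85279 UMIs. Counts were scaled to 10000 per cell and clustered on 2000 variable genes (57 imprinted genes left out), 30 components and 20 neighbors with Leiden at resolution 1 (scanpy 1.11.5). Scrublet marked 588 barcodes (4.15%), which were kept in the counts unless stated. A cluster was named from 22 marker lists by its 10 leading genes, together with cutoffs on Col2a1, Col1a1, Col10a1 and Ptprc. Cycling chondrocyte-like cells were named by the share of cells with Top2a (more than 50%).

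UMIs were summed per class and given as CPM with exact Poisson 95% intervals. Log2 ratios had 1 CPM added, with 95% intervals from a normal approximation to the counting error. Genes with at least 10 CPM in either class were compared. No test was made, since there was 1 library. Simulated counts with 200 changed genes were used to check the ratios. A limit for 0 counts is 3 counts. The members and gene lists were chosen with earlier results of these data known. All 9 members were named. The genes most like each member were the 3 with the highest r among genes of at least 50 CPM in a cluster, and listed genes were counted from 20 CPM. Coordinates came from GENCODE (GRCm38). The alternatives were other filters, resolutions, numbers of variable genes, doublets left out, mean over cells, thinning, 10 CPM added and other reporter limits.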

Additional observations from a re-analysis of the deposited data

Results flagged for a closer look

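3 genes had log2 ratios of HC-derived over other osteoblast-like cells with opposite signs in the immature and the mature class. Dlk1 stood at 0.99 in immature and -1.08 in mature cells, Plagl1 at -0.39 and 0.37, and Grb10 at -0.27 and 0.22. The difference between the classes was not tested, since all cells came from 1 library. The Dlk1 values rest on 61 and 101 UMIs in immature and 19 and 76 UMIs in mature cells, and mature osteoblast-like cells as a whole held no more Dlk1 per Col2a1 UMI (4.57 per 1000) than leukocytes (4.85 per 1000).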

How the results depend on the processing

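No paired analysis was possible because the 4 entries are 1 library and form 1 group, and for the same reason no replicate could be left out. Of 36 log2 ratios past 2-fold, 25 kept direction and 2-fold in all alternatives that gave both classes, and 74 of 87 alternative counts of genes past 2-fold stayed within 1.5 times the main count. The count for pre-HC-like over maturing cells was 1 in place of 3 at 5% mitochondrial UMIs and at resolution 1.5. That for cycling cells was 2 with at least 2000 genes per cell and 0 at 5% mitochondrial UMIs. That for mature over immature osteoblasts was 7 with at least 2000 genes and at 5% mitochondrial UMIs, and 2 with 10 CPM added. That for marrow stromal cells was 1 with at least 1000 genes and 0 with at least 2000. That for HC-derived cells was 2 with doublets left out, with the mean over cells, above 30 WPRE UMIs and with at least 1 tdTomato UMI. At 5% mitochondrial UMIs the ratios of Dlk1 (0.62) and Meg3 (0.09) for pre-HC-like over maturing cells and of Dlk1 for vessel over leukocyte cells (-2.75, with 39 vessel cells) changed sign. Dlk1 changed sign for mature over immature osteoblasts at 20% mitochondrial UMIs (0.43), and for marrow stromal cells over immature osteoblasts with at least 2000 genes (0.31), at 20% mitochondrial UMIs (1.15) and with doublets left out (0.28). Cdkn1c changed sign in the last comparison with at least 2000 genes (-0.06). Cells were clustered and named anew under each filter, resolution and gene choice, so classes held other cells, and the cause of each change was not tested. Some settings gave no pre-HC-like, maturing, cycling or marrow stromal class (resolution 0.6 gave none of these), and so no value. Depth limited Dlk1 in some classes, with 21 UMIs in marrow stromal-like and 33 in HC-like cells.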
